A study of Mus musculus with 4 samples.

Results

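The DNA methyltransferases Dnmt1, Dnmt3a and Dnmt3b attach methyl groups to cytosines of the DNA. They were described here through every probe set (the group of short probes that reads 1 transcript) that the platform annotation assigns to a single one of these gene symbols. That rule found 4 probe sets of 12488 on the array, 2 for Dnmt1 (101445_at and 161601_i_at) and 2 for Dnmt3a (100479_at and 161170_r_at). It found 0 for Dnmt3b, which was therefore not analysed here. The genes were selected on earlier results of these data, Dnmt3a for the log2 differences of its measured probe set after LIF withdrawal, so their values are a description without a test.

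Total RNA of E14tg2a, a feeder-free line of mouse embryonic stem cells, was hybridized to 4 Affymetrix arrays, 1 for each group. Control cells were sampled in medium holding 3000 U/ml of leukemia inhibitory factor, abbreviated LIF, and again after 4 days without it. Cells of the same line labelled as expressing constitutively active Akt, titled Akt12 and called Akt cells below, were sampled in the same media. The groups are called control LIF+, control LIF-, Akt LIF+ and Akt LIF-. The sources used here do not give whether Akt12 is a single clone, which form or promoter of Akt was used, or whether the control cells carry a vector, so a difference between clones and an effect of Akt cannot be told apart. No group has a replicate, so no difference has a replicate check. In bulk RNA, fewer cells with a transcript and less transcript per cell cannot be told apart.

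Dnmt1 is the maintenance enzyme, which acts at replication forks on DNA methylated on only the parental strand. Dnmt3a and Dnmt3b are the de novo enzymes, which methylate sites that carried no mark. In mouse development DNA methylation is low in the inner cell mass and is laid down again as the epiblast forms, when both de novo enzymes are abundant. Embryonic stem cells survive without any of these enzymes while undifferentiated, but differentiate poorly. Dnmt3a is transcribed from more than 1 start, and a shorter form from an internal start is the main one in mouse embryonic stem cells.

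The Dnmt3a upstream regions are shown because that gene carries the main difference, and because the array does not tell which start was used. RefSeq (GRCm38.p6) lists 3 Dnmt3a starts, of which the first and the internal one are printed as the 250 bases before the start, 5′ to 3′, with each CG, the dinucleotide that these enzymes methylate, in capitals. The upstream window lies at chr12:3806730-3806979 and the internal window at chr12:3891494-3891743, both on the plus strand.
Dnmt3a first listed start: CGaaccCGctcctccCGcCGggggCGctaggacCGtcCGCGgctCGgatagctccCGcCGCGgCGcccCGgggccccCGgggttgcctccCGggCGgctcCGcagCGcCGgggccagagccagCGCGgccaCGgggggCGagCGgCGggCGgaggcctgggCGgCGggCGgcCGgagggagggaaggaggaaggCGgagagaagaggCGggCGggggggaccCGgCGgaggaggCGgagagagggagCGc
Dnmt3a internal start: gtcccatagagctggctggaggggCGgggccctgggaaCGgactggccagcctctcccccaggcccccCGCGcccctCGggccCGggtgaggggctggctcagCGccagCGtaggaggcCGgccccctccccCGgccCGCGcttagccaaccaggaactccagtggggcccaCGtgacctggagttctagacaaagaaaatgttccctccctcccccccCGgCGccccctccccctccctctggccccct
The first window holds 38 CG and the internal one 15, against a median of 6 over the 32851 windows of the same length in the table. Neither strand of these windows held TTCNNNGAA, a motif of STAT factors, or TGTTTAC, a motif of FOXO factors. Of all windows, 7.02% held the first motif and 3.17% the second, so their absence here is the usual case and says nothing about either factor. Methylation itself was not measured.

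The arrays were checked against marker genes before the methyltransferases were read. All 8 stem cell markers were above the detection floor, an intensity of 15.8, on all 4 arrays, and their summed quantile-normalized intensity was 10069 in control LIF+ cells, 4054 in control LIF- cells, 10899 in Akt LIF+ cells and 7433 in Akt LIF- cells. The array of control LIF- cells therefore had the lowest sum. It also had the highest sums of the 5 trophoblast markers (1544 against 210 to 414), the 2 mesoderm markers on the array (798 against 88.9 to 153), the 8 fibroblast and feeder markers (582 against 256 to 297) and the 4 neural markers (193 against 65.9 to 151.6). The trophoblast sum was mostly Krt8, at 768 there, and Krt18, at 627. On the fibroblast list Thy1 was lower there than in control LIF+ cells, at 27.6 against 31.65, and Vim was near the floor at 19.25. The mesoderm sum was nearly all Actc1, at 790 there, and the neural sum nearly all Nes, at 179, a log2 difference of 0.69 from control LIF+ cells. The neural marker Pax6 was above the floor in control LIF+ cells, at 31.95, and below it in control LIF- cells. The 6 endoderm markers summed to 329 in control LIF- cells, below the 414 of Akt LIF- cells and above the 90.9 and 246 of the arrays with LIF. Dab2 made up most of the 329, at 218. Cdx2, of the trophoblast list, was above the floor in control LIF- cells alone, and only just, at 17.95. Below the floor on all arrays were the fibroblast marker Postn, the endoderm marker Ttr, the mesoderm marker Hand2 and the neural marker Map2. The part of other cell types in the values below was not tested.

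Dnmt3a differed most on the array of control LIF- cells. Its probe set 100479_at had deposited intensities of 263.2 in control LIF+ cells, 39.9 in control LIF- cells, 107.6 in Akt LIF+ cells and 288.8 in Akt LIF- cells. After quantile normalization, which gives the arrays a common distribution, the intensities were 206, 36.6, 127 and 343 in the same order. The level was thus highest in Akt LIF- cells, next in control LIF+ cells, then in Akt LIF+ cells, and far below these in control LIF- cells. All 4 values lay above the floor. The level was also lowest where the stem cell markers were lowest, but Akt LIF- cells, with the highest Dnmt3a, had a lower stem cell marker sum than either array with LIF.

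**Figure D1:**
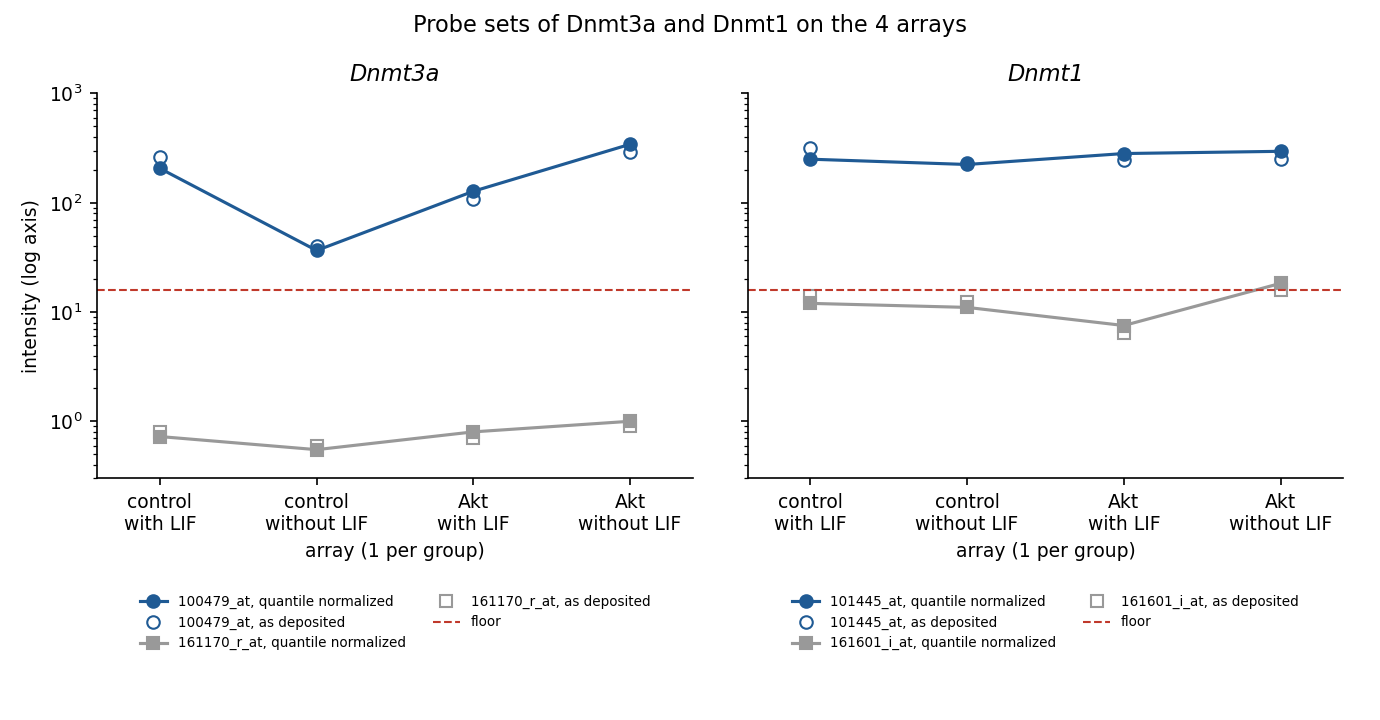
Intensity (log axis) of the 2 probe sets of Dnmt3a and the 2 of Dnmt1 on the 4 arrays, as deposited (open symbols) and quantile normalized (filled symbols, joined by lines), with the floor of 15.8 dashed. Dnmt3a 100479_at drops to 36.6 in control LIF- cells and reaches 343 in Akt LIF- cells, while Dnmt1 101445_at stays between 224 and 296.

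In control cells Dnmt3a was 5.64-fold lower without LIF, a log2 difference of -2.50. Among 5984 genes that exceeded the floor on either array, 6.4% were at least 2-fold lower, and 26 had a lower difference than Dnmt3a. The same comparison by deposited values, with no scaling, gave 6.6-fold. In Akt cells Dnmt3a was 2.69-fold higher without LIF, a log2 difference of 1.43, where 3.01% of 5945 genes were at least 2-fold higher and 49 had a higher difference. These contrasts share no array. The response in Akt cells exceeded that in control cells by 3.92 on the log2 scale, and 3 of 5027 genes above the floor on all 4 arrays had a larger value. Only 0.318% of those 5027 genes, 16 with Dnmt3a among them, were at least 2-fold lower in control cells and at least 2-fold higher in Akt cells. Since Dnmt3a was chosen for this contrast, nothing is read from these shares.

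Set against control cells in the same medium, Akt cells had less Dnmt3a with LIF and more without it. With LIF the log2 difference was -0.70, which is 1.62-fold lower and short of the 2-fold limit that 3.64% of 5938 genes passed downward. By deposited values it was -1.29, but there the median of all genes was -0.52. Without LIF Dnmt3a was 9.38-fold higher in Akt cells, a log2 difference of 3.23, with 5.87% of 6009 genes at least 2-fold higher and 7 genes above Dnmt3a. These comparisons reuse the arrays of the LIF contrasts and are the same 4 values read the other way.

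The only error estimate within these arrays is the disagreement between probe sets of one gene. Its SD was 0.411 on the log2 scale for LIF withdrawal in control cells, 0.351 in Akt cells, 0.359 for Akt against control LIF+ cells and 0.411 without LIF, over 815 to 847 genes with several probe sets. The Dnmt3a differences were 6.07, 4.07, 1.94 and 7.87 times these SDs. In the order of levels, the neighbours Akt LIF- and control LIF+ differed by 0.73 in log2 and control LIF+ and Akt LIF+ by 0.70, both under 2-fold, and the lowest array stood apart. This SD covers probe sets, not cultures. It was taken over probe sets above the floor on both arrays of a comparison, which leaves out the second Dnmt3a probe set. Since Dnmt3a was chosen for these differences, nothing is read from their size in SDs.

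The Dnmt3a result rests on a single probe set. The other one, 161170_r_at, had deposited intensities of 0.8, 0.6, 0.7 and 0.9, below the floor on every array, so it can neither repeat the pattern nor oppose it. All 19 probe sets for transcripts that mouse cells lack lay at 14.9 or below as deposited. RefSeq also lists a pseudogene, Dnmt3a-ps1, and a transcript from the opposite strand, Dnmt3aos, and which part of the transcript the probes read was not determined here.

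Signal ratios of the 3' to the 5' end of actin, which depend on RNA integrity and labelling, were 2.33 in control LIF+ cells, 1.66 in control LIF- cells, 3.04 in Akt LIF+ cells and 2.48 in Akt LIF- cells. The array lowest in Dnmt3a thus had the lowest actin ratio, while the order of the other arrays differed from that of Dnmt3a. The Gapdh ratios were 3.03, 3.19, 3.05 and 2.46, which is exactly the reverse of the Dnmt3a order, with the highest ratio in control LIF- cells and the lowest in Akt LIF- cells. The part of either ratio in the Dnmt3a values was not tested.

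Dnmt1 differed little between the arrays. Probe set 101445_at had deposited intensities of 318.9 in control LIF+ cells, 230.3 in control LIF- cells, 246.4 in Akt LIF+ cells and 249.7 in Akt LIF- cells. Normalized, they were 250.5, 224, 282 and 296. The order from high to low was Akt LIF- cells, Akt LIF+ cells, control LIF+ cells and control LIF- cells, and no neighbours in that order differed by more than the spread between probe sets.

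After LIF withdrawal Dnmt1 had a log2 difference of -0.16 in the control line and 0.07 in the Akt line, and between Akt and control cells it was 0.17 with LIF and 0.40 without. All 4 were below 1 SD between probe sets, at 0.39, 0.19, 0.48 and 0.98 times that SD. Differences at least as large were found in 78.3%, 86.5%, 69.7% and 47.2% of genes. The sign for Akt cells after LIF withdrawal turned with the scaling (-0.10 to 0.07), as did that for Akt against control LIF+ cells (-0.37 to 0.34). The gap between the responses of the lines was 0.23 in log2 for Dnmt1, against 3.92 for Dnmt3a.

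The second Dnmt1 probe set, 161601_i_at, had deposited intensities of 13.9, 12.3, 6.4 and 15.9. It was above the floor only in Akt LIF- cells, at a normalized 18.3, and gives no usable difference. Of the 4 methyltransferase probe sets, 2 were therefore measured on all arrays.

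Trdmt1 has the fold of a DNA methyltransferase but methylates transfer RNA, and Uhrf1 recruits Dnmt1 to hemimethylated DNA. These relatives and partners differed less than 2-fold in every comparison. Trdmt1 had normalized intensities of 46.9, 34.5, 29.5 and 27.6 in control cells with and without LIF and Akt cells with and without LIF. Uhrf1 had 141.2, 98.4, 98.4 and 104.2 in that order. After LIF withdrawal Uhrf1 had a log2 difference of -0.52 in control cells and 0.08 in Akt cells.

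Transcripts of proteins that work with the methyltransferases were mostly lower in control LIF- cells, while in Akt cells their median was nearly level. The list of 26 partners and readers of DNA methylation had 15 genes above the floor, of which 5 were at least 2-fold lower and 1 higher in control LIF- cells, with a median log2 difference of -0.59. Over all genes 6.4% were 2-fold lower and 7.39% higher there, and the median was -0.03. In Akt cells 1 of the 15 was 2-fold down and 0 up, and the median was 0.10, where 3.65% of all genes were lower and the median was 0.01. Of the 15, 9 lay below 0 in control and above 0 in Akt cells, 60% against 25.8% of all 5027 genes. Signs were counted whatever their size. In Akt cells these 9 ran from 0.05 for Trim28 to 0.62 for Ctcf, most below the SD between probe sets of 0.351. Usp7, at 0.10, had -0.07 by its second probe set. Of the lists described below, the demethylation and supply lists each had 25% of genes with such signs, repressive histone methylation 35% and DNA replication 48.6%.

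Dppa3, which guards maternal methylation in the egg and hampers Uhrf1, was the partner furthest down, with normalized intensities of 136, 22.4, 51.4 and 23.9 in the order of the groups used above. It was 6.1-fold lower without LIF in control cells and 2.15-fold lower in Akt cells. Zfp57, which holds methylation at imprinted regions, had 85.9, 16.4, 123.9 and 62.6. It was 5.22-fold lower in control cells, with the low value close to the floor, and 1.98-fold lower in Akt cells. Both genes were lower without LIF in both lines, unlike Dnmt3a.

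Daxx, a histone chaperone that binds methyltransferases, was 3.04-fold lower in control LIF- cells and had a log2 difference of 0.25 in Akt cells. Hells, the remodelling enzyme that opens chromatin to de novo methylation, was 2.16-fold lower and had 0.31 in Akt cells. The histone chaperone Nasp followed the same course, with log2 differences of -1.12 and 0.14. Mbd2, a reader of methylated DNA, was the one 2-fold higher, by 2.22-fold in control LIF- cells, with 0.39 in Akt cells.

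**Figure D2:**
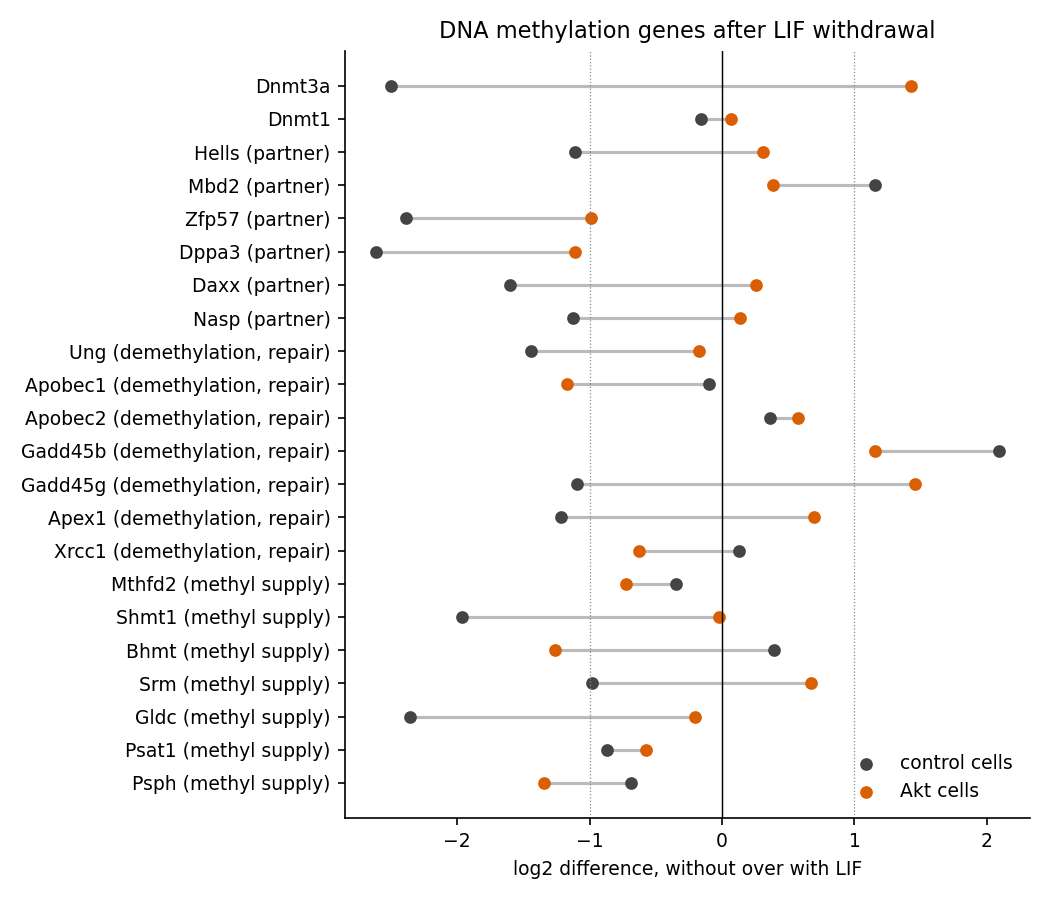
Log2 difference without over with LIF in control cells (grey) and Akt cells (orange) for Dnmt3a, Dnmt1 and the genes of 3 DNA methylation lists that were at least 2-fold different in any comparison, with dotted lines at 2-fold. The span of Dnmt3a from -2.50 to 1.43 is the widest shown, and that of Dnmt1 runs from -0.16 to 0.07.

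Genes of demethylation and base repair went in both directions. Of 14 above the floor in control cells, 3 were at least 2-fold lower without LIF and 1 higher, with a median of -0.29, where 6.4% of all genes were lower and 7.39% higher. In Akt cells 2 of 13 were higher and 1 lower, with a median of 0.01, where 3.01% of all genes were higher and 3.65% lower. Gadd45g, a growth arrest gene whose family has been linked to demethylation, was the only gene of the partner, demethylation and supply lists that shared the opposite signs of Dnmt3a at 2-fold. Its normalized intensities were 50.7 in control LIF+ cells, 23.8 without, 32.3 in Akt LIF+ cells and 88.4 without, so it was 2.13-fold lower in control and 2.74-fold higher in Akt cells. Its family member Gadd45b was higher without LIF in both lines, 4.25-fold and 2.23-fold, while its second probe set gave log2 differences of 0.99 and 0.44. Between the lines without LIF 3 of 13 genes of this list were at least 2-fold higher in Akt cells and 1 lower, Gadd45b at 6.38-fold, where 5.87% of all genes were higher and 8.12% lower. The second Gadd45b probe set had a log2 difference of -0.73 there, short of 2-fold. The higher ones were Gadd45g (3.71-fold) and, described below, Apobec2 (3.33-fold) and Ung (2.24-fold). Other probe sets gave log2 differences of -0.69 and -0.68 for Apobec2 and 0.02 for Ung. With the probe sets of a gene averaged, 1 gene of the list was at least 2-fold higher.

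Among the repair enzymes, the uracil glycosylase gene Ung was 2.72-fold lower in control LIF- cells with a log2 difference of -0.18 in Akt cells, though its second probe set gave 0.27 in control cells. The abasic site nuclease gene Apex1 was 2.32-fold lower in control cells and had 0.70 in Akt cells. Between the lines with LIF, 3 of 14 genes of the list were at least 2-fold higher in Akt cells and 2 lower. Over all genes 3.5% were higher and 3.64% lower there. The higher ones were the Apobec family genes Apobec1 (2.59-fold) and Apobec2 (2.88-fold) and the scaffold gene Xrcc1 (2.5-fold). Apobec1 was close to the floor in control LIF+ cells, at 16.9. With the floor at the 60th percentile, 0 genes of the list were at least 2-fold higher. The lower ones were Gadd45b (3.34-fold) and Apex1 (2.19-fold). Other probe sets fell short of 2-fold, with log2 differences of 0.32 for Apobec2, 0.85 for Xrcc1 and -0.17 for Gadd45b. A further one of Apobec2 was below the floor with LIF in both lines. In Akt LIF- cells Apobec1 was 2.24-fold lower than with it. The oxidase gene Tet1 was above the floor in control LIF+ cells alone, at 25.9, and has only a bound on the other arrays.

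The list of methyl group supply, through one-carbon metabolism and S-adenosylmethionine, had 14 members above the floor. Some of them, such as Srm and Gamt, use the donor rather than supply it. In control LIF- cells 2 of them were at least 2-fold lower, 0 were higher, and the list's median was -0.52, with 6.4% of all genes lower and 7.39% higher. They were Gldc, the decarboxylase of the glycine cleavage system (5.11-fold), and Shmt1, a serine hydroxymethyltransferase (3.9-fold). In Akt cells Gldc had a log2 difference of -0.20 and Shmt1 -0.03, while Psph, of serine synthesis, was 2.54-fold lower and the betaine methyltransferase gene Bhmt at least 2.39-fold lower. These were 2 of 14, with 0 higher and a median of -0.11, where 3.65% of all genes were lower and 3.01% higher. Bhmt went from 37.7 to below the floor, and its second probe set was below the floor on all arrays. Srm, which uses decarboxylated S-adenosylmethionine to make spermidine, had -0.98 and 0.68. Ahcy, which clears the product that inhibits methyltransferases, was measured by 3 probe sets with log2 differences of 0.08, -0.74 and -0.25 in control cells and 0.49, 0.51 and 0.69 in Akt cells.

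Between the lines with LIF, 3 of the 14 genes of the supply list were at least 2-fold higher in Akt cells, where 3.5% of all genes were. They were Psph (3.05-fold), Mthfd2 (2.35-fold), a mitochondrial folate enzyme gene, and Bhmt (2.26-fold). Without LIF 4 of 14 were higher in Akt cells, namely Gldc (4.36-fold), Shmt1 (2.6-fold), Psat1 of serine synthesis (2.37-fold) and Srm (2.1-fold), where 5.87% of all genes were higher. The median of the list was -0.04 with LIF and 0.79 without, against 0.01 and 0.06 for all genes.

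**Figure D3:**
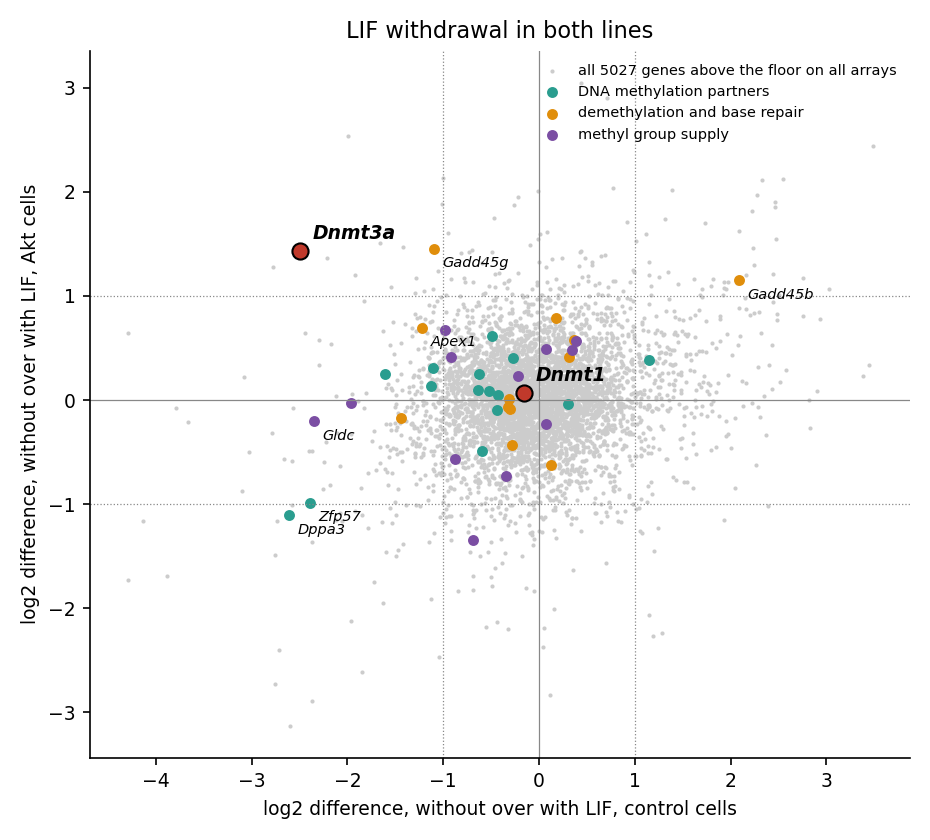
Log2 difference without over with LIF in control cells (horizontal) and Akt cells (vertical) for 5027 genes above the floor on all 4 arrays (grey), with Dnmt3a and Dnmt1 in red and the 3 DNA methylation lists coloured. Dnmt3a lies at -2.50 and 1.43, in the sparse upper left corner, and Dnmt1 at -0.16 and 0.07, near the centre.

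Dnmt1 acts at replication forks, so replication genes were read beside it. Of 35 above the floor, 4 were past 2-fold downward and 0 upward in control LIF- cells, and the median log2 difference was -0.60, whereas Dnmt1 had -0.16. Over all genes 6.4% were lower and 7.39% higher there. The polymerase delta subunit genes Pold2 and Pold1 were 2.92-fold and 2.21-fold lower, the clamp loader subunit gene Rfc5 2.42-fold and the cyclin gene Ccne1 2.29-fold. A second probe set of Rfc5 gave a log2 difference of 0.28 and a second of Pold1 0.19. The clamp gene Pcna, whose product binds Dnmt1, had -0.18 in control and 0.48 in Akt cells. In Akt cells the list had a median of 0.00 and Ccne1 was its only member at least 2-fold different, 2.07-fold higher, where 3.01% of all genes were higher.

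The list of repressive histone methylation, some of whose proteins bind methyltransferases, had 22 members above the floor. Besides writers and readers it holds other chromatin genes, among them the deacetylase genes Hdac1 and Hdac2 and the demethylase gene Kdm1a. In control LIF- cells 3 were past 2-fold downward and 0 upward, and the median was -0.29, beside 6.4% and 7.39% of all genes. They were Cbx1, a heterochromatin protein 1 gene (3.1-fold), Ehmt2, the G9a histone methyltransferase gene (2.51-fold), and Jarid2, a Polycomb cofactor gene (2.38-fold). In Akt cells none was 2-fold different, beside 3.65% of all genes lower and 3.01% higher, and Cbx1 had 0.66 and Ehmt2 0.69. The Polycomb gene Eed had -0.92 in control and -0.85 in Akt cells. Cbx1 and Ehmt2 thus had the signs of Dnmt3a in both lines, below 2-fold in Akt cells. Those signs, counted whatever their size, were found in 7 of the 20 listed genes above the floor on all arrays, 35% against 25.8% of all genes.

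Germline genes that are methylated and silent in somatic cells are known readouts of DNA methylation, and 6 were above the floor in control cells. Without LIF 4 of these lay at least 2-fold down and 0 up, beside 6.4% and 7.39% of all genes. Tex19.1 went from a normalized 191.4 to 27.7, which is 6.9-fold lower, and the homeobox gene Rhox5 was 5.28-fold lower. The egg coat gene Zp3 was at least 4-fold and the RNA-binding protein gene Dazl at least 2.45-fold lower. The germ cell helicase gene Ddx4 went the other way, 1.98-fold higher and just short of the limit. In Akt cells the log2 differences of the 4 lower genes lay between -0.59 and -0.32, and none of the 8 listed genes above the floor was 2-fold different. The stem cell markers were also lowest on the array of control LIF- cells, and the part of cell state in these values was not tested.

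Imprinted genes, whose parental marks Dnmt1 maintains, were at least 2-fold higher in 8 of 21 cases in control LIF- cells and lower in none, with a median of 0.57, where 7.39% of all genes were higher. In the Akt line 4 of 22 were 2-fold up and 0 down, and the median was 0.16, where 3.01% of all genes were higher. Peg3 was 4.7-fold and 2.75-fold higher, and its other 2 probe sets gave log2 differences of 2.74 and 1.51 in control cells and 1.08 and 0.55 in Akt cells. Igf2 had log2 differences of 1.96 and 0.63, and Sgce 1.49 and -0.46. Dcn, 9.2-fold higher in control LIF- cells, is also on the fibroblast list, which had its highest sum on that array.

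The genes whose profile was most like that of Dnmt3a were ranked by the root mean square difference of log2 values centred on the mean of the 4 arrays. Over 5025 genes the 5 nearest were Utp14a, of ribosome assembly (0.29), Zfp94, a zinc finger gene (0.33), Utf1, a stem cell chromatin gene (0.34), Ccnb1ip1, a meiotic ligase gene (0.35), and Twf2, an actin-binding protein gene (0.48). Utp14a had normalized intensities of 329, 70.9, 156 and 402 in the order of the groups used above, lowest and highest on the same arrays as Dnmt3a. Utf1 had 741, 137, 464 and 723, with control LIF+ cells the highest. The other 7 stem cell markers were lower in Akt LIF- cells than with it, while Utf1 had a log2 difference of 0.64.

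The likeness is a description over 4 arrays. A Pearson correlation with Dnmt3a of at least 0.95 was found for 225 genes and a root mean square difference under 0.25 for 0 genes. Around Dnmt1 2046 of 5025 genes lay within 0.25, so its nearest genes, Mdh2, Rbm17, Ubxn6, Snhg1 and Atp5e at 0.01 to 0.02, stand for a large share of the array. Ranked by correlation, 1 of the 5 genes nearest to Dnmt3a and 1 of those nearest to Dnmt1 remained among the nearest 5.

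**Figure D4:**
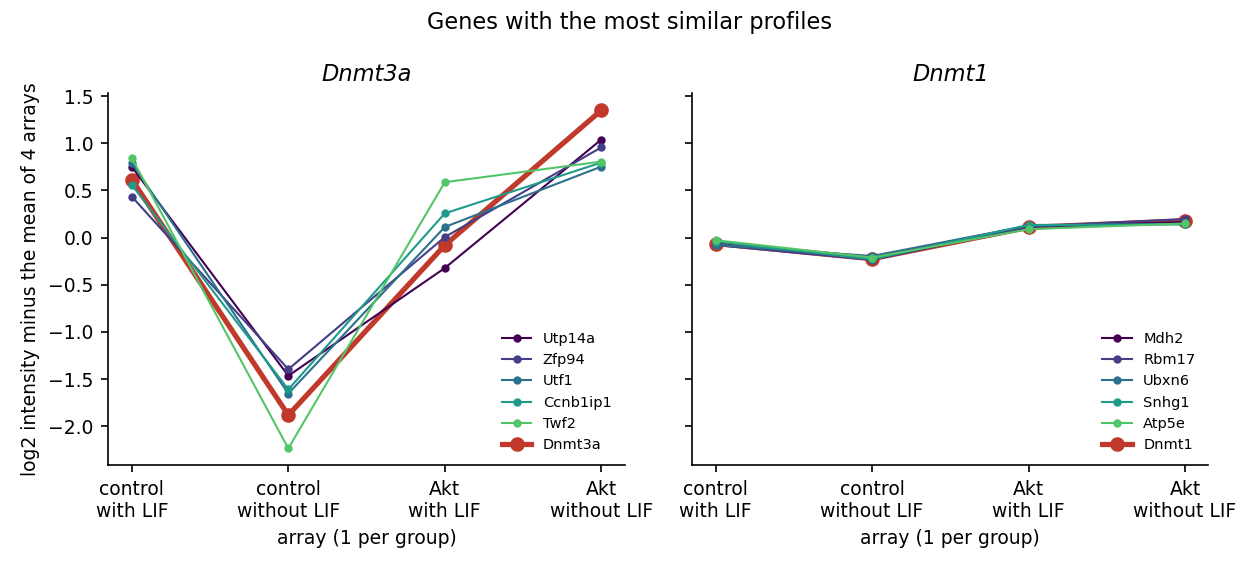
Log2 intensity on the 4 arrays, centred on each gene's mean, for Dnmt3a and Dnmt1 (red) and the 5 genes nearest to each. The Dnmt3a panel shows 1 deep minimum, in control LIF- cells, and the Dnmt1 panel is nearly flat, with its nearest genes at root mean square differences of 0.01 to 0.02.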

How the data were processed

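The authors deposited 1 table of linear intensities for the 4 arrays, and the sources used here do not give the software or scaling behind it. Its 2% trimmed means differed by 1.51 times, so 12422 probe sets, all but the array controls, were quantile normalized (limma 3.58.1, R 4.3.3), set to a floor at the 40th percentile of all values (15.8) and put on the log2 scale. Of them 10833 name 1 gene, and symbols were updated through RefSeq (GRCm38.p6), which held 10817. Of 8251 genes, each was represented by its probe set of highest mean. Genes that exceeded the floor on either array of a comparison were counted at 2-fold. With 1 array per group no test was possible, and the number of arrays limits precision.

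The members and lists were chosen with earlier results of these data known. Named were all member probe sets, the 5 nearest profiles and each gene of the partner, demethylation and supply lists at least 2-fold different anywhere. Also named were the 4 most different of the replication, histone, germline and imprinted lists in either LIF comparison. The cell type marker lists were read as sums. Trdmt1, Uhrf1, Trim28, Ctcf, Usp7, Tet1, Ahcy, Pcna and Ddx4 were singled out after their values were seen. So were Gadd45g's place among opposite responses and the single cell type markers named. The steps were tested on simulated data.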

Additional observations from a re-analysis of the deposited data

Results flagged for a closer look

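Responses to LIF withdrawal were at least 2-fold in both lines and in opposite directions for 4 of the genes named here, and with 1 array per group this contrast was not tested. For Dnmt3a the Akt line's response exceeded the control line's by 3.92 on the log2 scale. It was 3.57 for Utp14a, 2.55 for Gadd45g and 2.25 for Ccne1. All 4 were lower in control cells and higher in Akt cells without LIF, as were 16 of 5027 genes above the floor on all arrays (0.318%). Dnmt3a was chosen for this contrast and Utp14a was named for its likeness to Dnmt3a. Gadd45g and Ccne1 were named for the size of their differences. Nothing is therefore read from the count of 4. Each rests on 1 probe set above the floor.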

How the results depend on the processing

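Under 3 other scalings, 2 other floors and a pseudocount of 16, the log2 difference of Dnmt3a kept its direction and stayed past 2-fold after LIF withdrawal in control cells (-2.72 to -2.08), in Akt cells (1.31 to 1.45) and between the lines without LIF (2.77 to 3.23), with -2.08 and 2.77 from the pseudocount, which shrinks differences of low values by construction. Between the lines with LIF, unscaled values gave -1.29 for Dnmt3a and -0.37 for Dnmt1, with a median of -0.52 over all genes. The 3 DNA methylation lists together held 2 genes past 2-fold upward and 10 downward for LIF withdrawal in control cells (comparison A), 2 and 4 in Akt cells (B), 6 and 3 for Akt over control with LIF (C), and 9 and 1 without LIF (D). Unscaled, A became 1 and 16 and C became 2 and 16. The 60th percentile floor gave 1 upward in A, 0 and 1 in B and 2 upward in C. The pseudocount gave 1 upward in A, 1 and 1 in B and 3 upward in C. Averaged probe sets gave 1 upward in B and 3 in C. Plain probe sets gave 1 upward in A and in B and 0 downward in D. At 1.5-fold, 19 lay downward in A, 6 up and 7 down in B, 8 down in C and 17 up in D. Apart from the shift of all genes and the changed thresholds, the cause was not tested. Over all genes, unscaled values moved the share of higher among 2-fold genes from 53.6% to 30.2% in A, from 49.1% to 6.18% in C and from 42% to 18.8% in D. Hybridization control scaling moved it from 45.2% to 32% in B and from 49.1% to 66.8% in C, with medians of all genes at -0.10 and 0.16. No paired analysis was possible because each group has 1 array.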
